A study of Ficus obtusifolia with 4 samples.

Results

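Gall flowers were compared with seed flowers of the fig Ficus obtusifolia at both stages that were sampled, to describe transcripts that differed in the same direction before and after a foundress wasp had entered. Members were chosen by the ratio of RPKM (mapped reads per library total and transcript length) of gall over seed flowers, and a member had a ratio of at least 2 at both stages or of at most 0.5 at both stages. Of the 10267 transcripts compared, among 54550 in the assembly, 819 (7.98%) were members. Gall flowers were the higher flower type at both stages for 513 transcripts and seed flowers for 306. Transcripts entered the comparison with 10 or more reads in each receptive library and an RPKM above 20 somewhere among the libraries.

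The 4 libraries were receptive gall, pollinated gall, receptive seed and pollinated seed flowers. Receptive figs were taken before any wasp was let in, and pollinated figs came 24 hours after a single Pegoscapus hoffmeyerii foundress had been put in. All figs grew on the same tree and were bagged against other wasps, and flowers were assigned to gall or seed by their position inside the fig alone. Each library held flowers pooled from several figs, so each flower type had 1 library at each stage and the spread between samples of the same kind is not known. The ratios at the receptive and the pollinated stage share no library.

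The fig inflorescence, or syconium, is a closed urn lined with small flowers. Flowers near the lumen are those in which the wasp usually lays its eggs and which then grow into galls, whereas flowers near the wall usually set seed. Phenylalanine is the start of the phenylpropanoid pathway, from which plants draw lignin and, through chalcone synthase, the flavonoids that include flavonols, anthocyanins and the condensed tannins called proanthocyanidins.

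Mapped reads numbered 51063005 and 58969477 in receptive and pollinated gall flowers, against 11584069 and 22141107 in the seed flowers of the same stages, so low values in seed flowers carry the larger counting error. Ratios are given with exact conditional binomial 95% intervals, which cover counting error only and would be too narrow had both mates of a pair been counted. Wasp-described transcripts had 24 reads in receptive and 47049 (0.0798%) in pollinated gall flowers, against 2 and 31 in receptive and pollinated seed flowers. With 2 reads over all 503 in receptive seed flowers, none could reach the 10 reads needed to be compared. The list rests on words in the descriptions. The paper assigned far more transcripts of pollinated gall flowers to Hymenoptera, so 0.0798% is not the share of all wasp reads. In bulk flowers, fewer cells of a type and less RNA per cell cannot be told apart.

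Over all transcripts compared, the log2 ratio of gall over seed had a median of -0.16 at the receptive and -0.12 at the pollinated stage. A ratio of at least 2 was reached by 1807 transcripts (17.6%) at the receptive stage and 824 (8.03%) at the pollinated stage, and by 513 (5.0%) at both. These 513 are 28.4% of the receptive and 62.3% of the pollinated set. A ratio of at most 0.5 was found for 2263 (22.0%) at the receptive stage, 565 (5.50%) at the pollinated stage and 306 (2.98%) at both, which is 13.5% and 54.2% of the stage sets. Across the 10267 transcripts the log2 ratios of the stages had a Pearson's r of 0.504 and a Spearman's rho of 0.473. This is a description across transcripts of 4 libraries, in which read depth and transcript length are shared. Scaling by trimmed means (TMM) raised every log2 ratio by 0.15 at the receptive and 0.12 at the pollinated stage, and the members then numbered 625 higher in gall (74.3%) and 216 higher in seed flowers, against 62.6% higher in gall flowers without scaling.

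**Figure D1:**
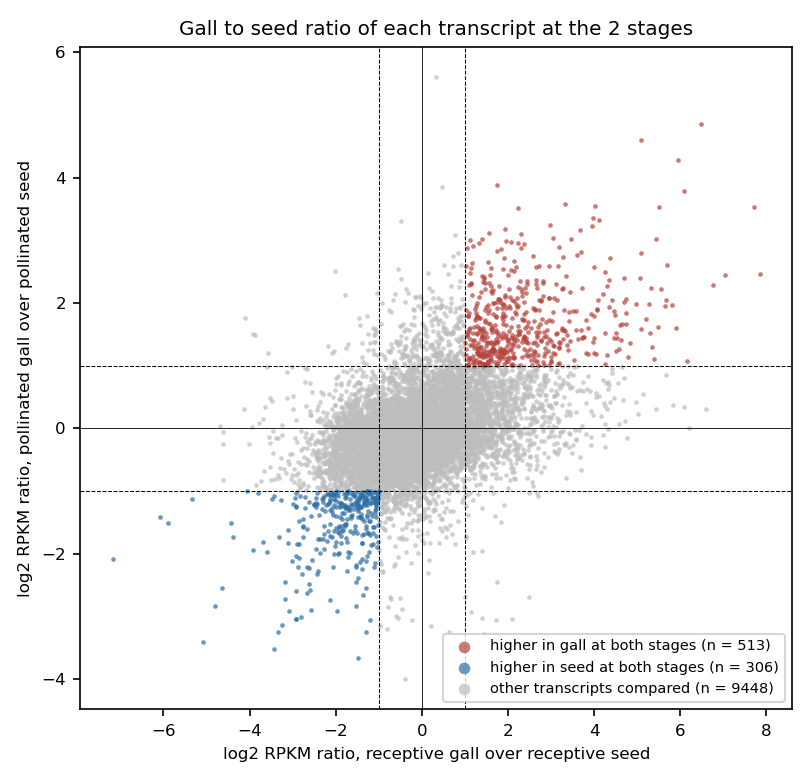
Each point is a transcript, with the log2 RPKM ratio of gall over seed flowers at the receptive stage on the horizontal axis and at the pollinated stage on the vertical axis. Dashed lines mark ratios of 2 and 0.5. The 513 transcripts higher in gall flowers fill the upper right corner and the 306 higher in seed flowers the lower left corner, while the spread along the horizontal axis is wider than along the vertical axis.

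Members higher in gall flowers had a median ratio of 4.30 at the receptive and 2.92 at the pollinated stage. Ratios of at least 3 at both stages were seen for 189 of them, of at least 4 for 90 and of at least 8 for 15. Together they took 6.81% and 6.91% of the reads of receptive and pollinated gall flowers, against 1.44% and 2.23% in receptive and pollinated seed flowers. Members higher in seed flowers had a median ratio of 0.296 at the receptive and 0.394 at the pollinated stage, and 75 of them lay at or below the inverse of 3 at both stages. They took 0.855% and 0.694% of the reads of receptive and pollinated gall flowers, against 2.92% and 2.04% of those of receptive and pollinated seed flowers. Both gall libraries lay above both seed libraries for 473 of the 513, and both lay below for 272 of the 306. Among all transcripts compared these orders held for 20.8% and 34.2%, and since the ratios chose the members, nothing is read from the difference. The counting interval lay wholly past the threshold at both stages for 416 and 186 members. Just inside the threshold were the cytochrome P450 Locus_7407 (pollinated ratio 2.00) and the exosome component Locus_2803 (0.50), and just outside were the ABC transporter Locus_26784 (1.9997) and the sucrase-like Locus_6542 (0.50038).

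Members were also followed between the stages within a flower type. Over members higher in gall flowers, the median log2 ratio of pollinated to receptive flowers was -0.02 in gall flowers and 0.71 in seed flowers, against 0.03 and -0.00 over all transcripts compared. A pollinated level of at least 2 times the receptive level was found for 81 of the 513 in gall (15.8%) and 208 in seed flowers (40.5%), against 5.68% and 12.2% of all transcripts compared. The receptive ratio was farther from 1 than the pollinated ratio for 379 of them (73.9%), a share close to the 70.6% of all transcripts compared. Over members higher in seed flowers the corresponding medians were -0.29 in gall and -0.62 in seed flowers, and the level in seed flowers was at most 0.5 times as high after pollination for 111 of the 306 (36.3%), against 10.7% of all transcripts compared. The ratios that chose the members use these same levels, so that a low receptive level in seed flowers favours both membership and a higher level at the other stage, and nothing is read from these shifts. Transcripts that passed the threshold at the receptive stage alone had shifts of the same sign in seed flowers, with medians of 1.15 where gall and -0.77 where seed flowers were higher. Wasp-described reads also stood higher in pollinated gall flowers than in the other libraries, and their part in these values was not tested.

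Transcript length went with the receptive ratio. At the receptive stage the log2 ratio of gall over seed had a median of -0.91 over 723 transcripts between 300 and 500 bp and of 0.21 over 3650 transcripts that reached 2000 bp, while the corresponding pollinated medians were -0.14 and -0.10. Members higher in gall flowers were 1285 bp long in the median and members higher in seed flowers 627 bp, against 1537 bp over all transcripts compared. In the longest class 3.89% of the transcripts were members higher in gall and 0.767% members higher in seed flowers, and under 200 bp these shares were 7.56% and 7.86%. After subtraction of the running median over length, 670 transcripts were higher in gall and 173 in seed flowers at both stages. Of these, 497 and 165 were members without this step. The part of length in the ratios of single members was not tested.

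**Figure D2:**
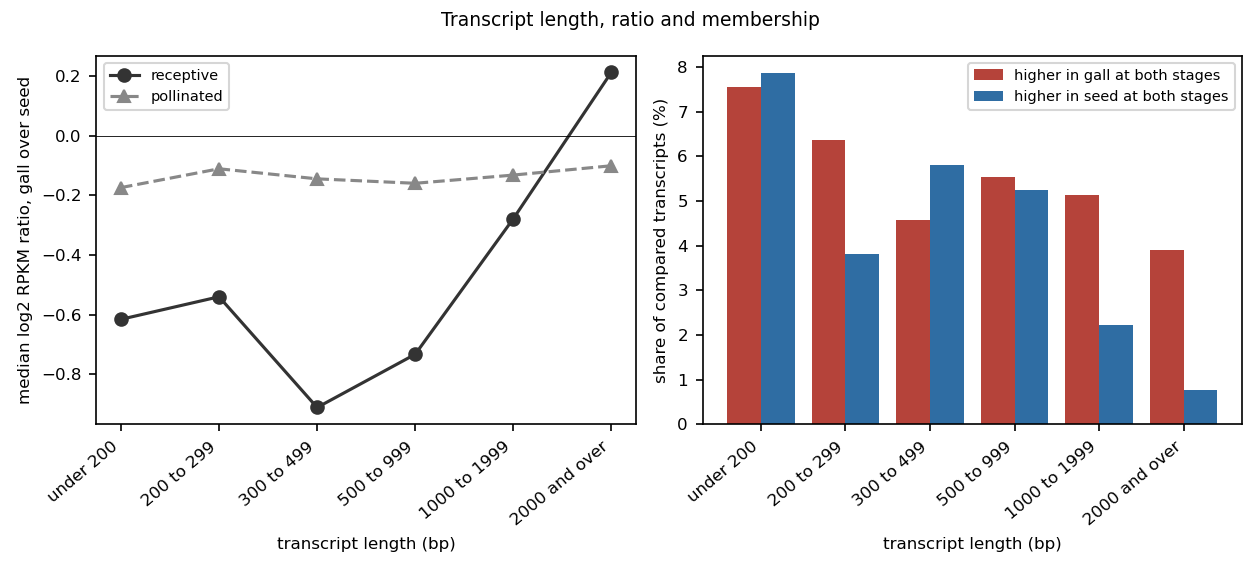
The left panel plots the median log2 RPKM ratio of gall over seed flowers by length class, with circles for receptive and triangles for pollinated flowers. The right panel plots the share of the compared transcripts of each class that were members higher in gall (red) or in seed flowers (blue). The receptive medians run between -0.91 and 0.21 while the pollinated medians stay between -0.17 and -0.10.

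The gene list with the most members was that of the first flavonoid enzymes, and in the 4 lists from the shikimate pathway to the later flavonoid enzymes no member was higher in seed flowers. Of 51 transcripts compared that are described as chalcone synthase or chalcone isomerase, 42 (82.4%) were members higher in gall flowers and 0 in the opposite direction, beside 5.0% and 2.98% over all transcripts compared. Their median log2 ratio was 1.88 at the receptive and 2.02 at the pollinated stage. Of the 51, 38 are under 200 bp and may be pieces of fewer genes, whereas 9.66% of all transcripts compared are that short. For the enzymes at the entry of the phenylpropanoid pathway 12 of 26 were higher in gall flowers (medians 1.89 and 0.94), and for the later flavonoid enzymes 15 of 33 (1.36 and 0.96), with 0 higher in seed flowers in either list. The shikimate pathway, which supplies phenylalanine, had 12 of 28 higher in gall flowers (medians 1.25 and 1.03). That list was added after the descriptions of the members had been seen.

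**Figure D3:**
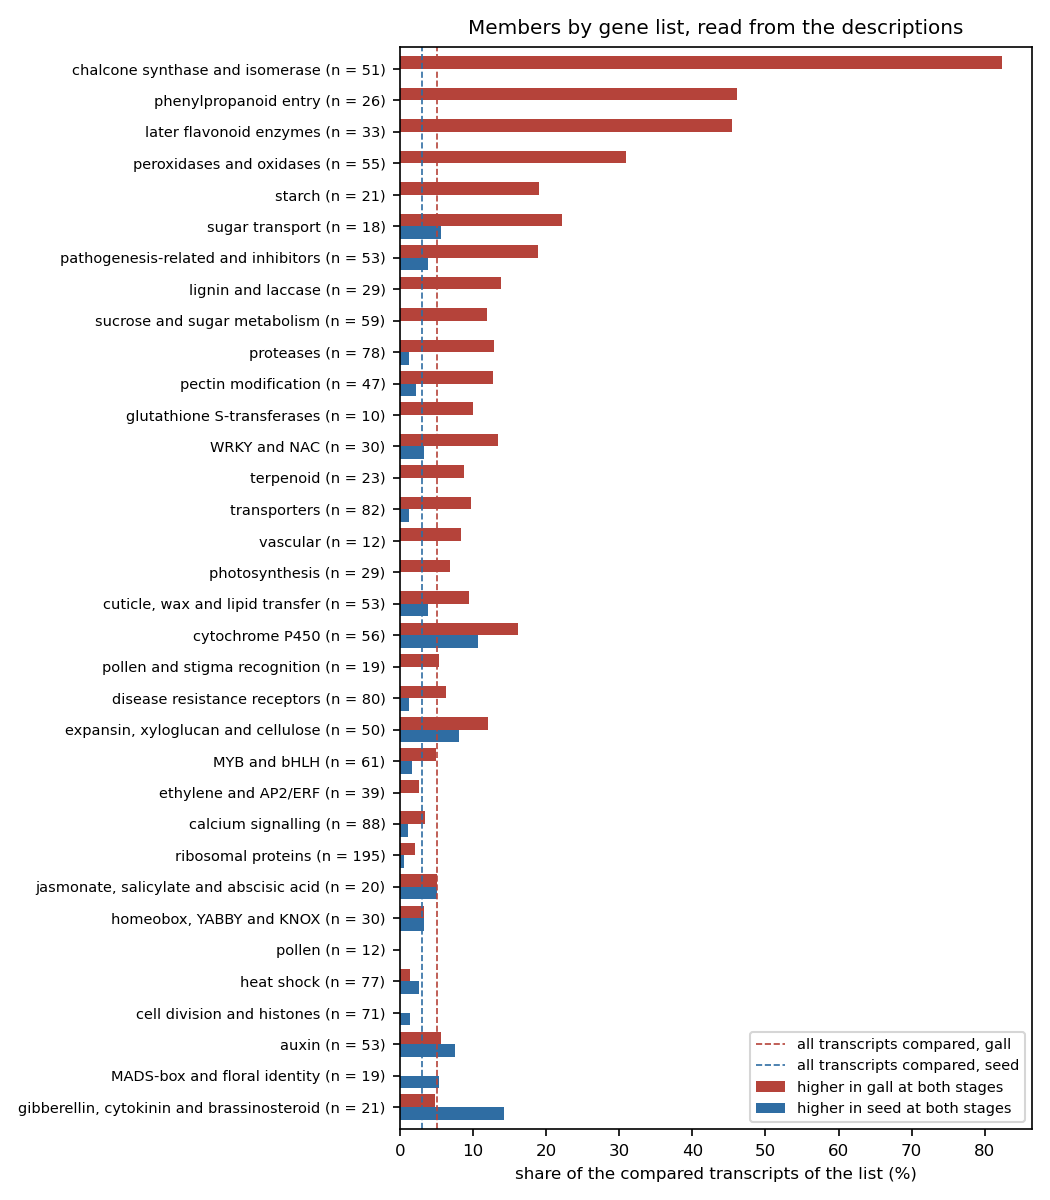
Bars give the share of the compared transcripts of each gene list that were members higher in gall (red) or in seed flowers (blue), with the number compared beside each list name and the shares over all transcripts, 5.0% and 2.98%, as dashed lines. Chalcone synthase and isomerase stand at 82.4% for gall flowers, and the gibberellin, cytokinin and brassinosteroid list has the highest share for seed flowers among the lists drawn, 14.3%. The lists added after values had been seen are not drawn.

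DAHP synthase, the first enzyme of the shikimate pathway, was a member higher in gall flowers for 7 of 9 transcripts. The median RPKM of these 7 was 234 in receptive and 171 in pollinated gall flowers, against 31.2 and 70.2 in receptive and pollinated seed flowers. All 7 had a lower RPKM in pollinated than in receptive gall flowers and a higher RPKM in pollinated than in receptive seed flowers, so their ratios ran from 3.16 to 13.3 at the receptive and from 2.27 to 2.76 at the pollinated stage.

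Phenylalanine ammonia-lyase, which turns phenylalanine into cinnamate, had 3 transcripts compared, all of 171 to 173 bp and all members. Locus_33084 had an RPKM of 1471 in receptive and 774 in pollinated gall flowers, against 105 and 232 in receptive and pollinated seed flowers. The ratios of the 3 ran from 14.0 to 49.7 at the receptive stage and from 3.33 to 3.85 at the pollinated stage, and both gall libraries lay above both seed libraries for each. Cinnamate 4-hydroxylase, the next enzyme, had 6 of 7 transcripts higher in gall flowers, with receptive ratios of 2.87 to 26.0 and pollinated ratios of 2.57 to 4.07. The next step held few members, since 4-coumarate:CoA ligase had 3 of 15 transcripts higher in gall flowers, and for 2 of these 3 the ratios also passed the threshold when only uniquely mapped reads were counted.

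Chalcone synthase, which makes the first flavonoid skeleton, had 28 of 34 transcripts higher in gall flowers and none higher in seed flowers. The highest RPKM was that of Locus_42519 (234 bp), with 4760 in receptive and 1807 in pollinated gall flowers, against 84.5 and 459 in receptive and pollinated seed flowers. Both gall values lay above both seed values, but the ratio was 56.3 (49.5 to 64.4) at the receptive and 3.93 (3.77 to 4.10) at the pollinated stage. Locus_7415 (910 bp) kept a larger difference, with an RPKM of 252 and 200 in receptive and pollinated gall flowers, against 3.70 and 14.4 in receptive and pollinated seed flowers. Its ratios were 68.2 (49.8 to 95.9) and 13.9 (12.3 to 15.6). Pollinated ratios of the 28 ran from 3.40 to 13.9 around a median of 4.73, close to the receptive median of 4.36, and 15 of them had the larger ratio at the receptive stage. The description is shared by 20 transcripts under 200 bp among the 28, which may be pieces of fewer genes. With uniquely mapped reads 26 of them still passed the threshold at both stages.

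Chalcone isomerase, which closes the central ring, had 14 of 16 transcripts higher in gall flowers, and 10 of these 14 are under 200 bp. Its most abundant member was Locus_45660 (122 bp), with an RPKM of 3303 and 3497 in receptive and pollinated gall flowers, against 847 and 1240 in receptive and pollinated seed flowers. The level in gall flowers was nearly the same at both stages, and the ratios were 3.90 (3.68 to 4.14) and 2.82 (2.72 to 2.93). Summed over all transcripts compared with these descriptions, chalcone synthase stood at 28921 and 24589 RPKM in receptive and pollinated gall flowers, against 7225 and 5717 in receptive and pollinated seed flowers. Chalcone isomerase stood at 14335 and 14909, against 4185 and 5121 in the same order.

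**Figure D4:**
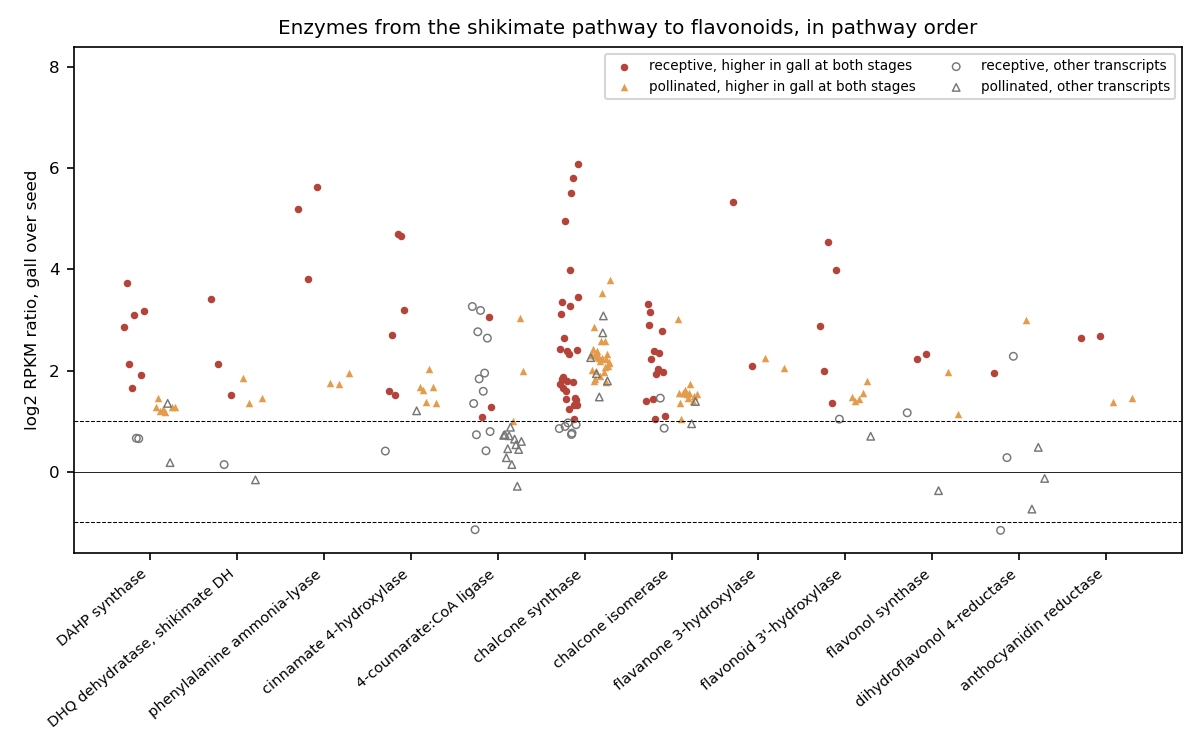
Points give the log2 RPKM ratio of gall over seed flowers of every compared transcript of 12 enzymes, from the shikimate pathway on the left to proanthocyanidin synthesis on the right. Circles are receptive and triangles pollinated flowers, filled for members and open for other transcripts, and dashed lines mark ratios of 2 and 0.5. Receptive ratios spread far above pollinated ratios for phenylalanine ammonia-lyase (14.0 to 49.7 against 3.33 to 3.85), and 4-coumarate:CoA ligase has mostly open points.

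Among later enzymes, flavanone 3-hydroxylase makes dihydroflavonols. Locus_15251 of this enzyme had an RPKM of 1522 and 1123 in receptive and pollinated gall flowers, against 38.0 and 237 in receptive and pollinated seed flowers. Flavonoid 3'-hydroxylase, which adds a hydroxyl group to the B ring, had 5 of 6 transcripts higher in gall flowers, with ratios of 2.57 to 23.2 at the receptive and 2.65 to 3.45 at the pollinated stage. Anthocyanidin reductase, the enzyme that provides epicatechin for proanthocyanidins, had both of its 2 transcripts higher in gall flowers. Locus_27985 stood at 1673 and 945 RPKM in receptive and pollinated gall flowers, against 269 and 364 in receptive and pollinated seed flowers, and Locus_32415 had nearly the same ratios, 6.41 (5.41 to 7.64) and 2.76 (2.47 to 3.09). Some steps differed within an enzyme. Dihydroflavonol 4-reductase had 1 of 4 transcripts higher in gall flowers, Locus_1263, with 146 and 177 RPKM in receptive and pollinated gall flowers, against 37.7 and 22.2 in receptive and pollinated seed flowers.

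Regulators and a transporter of proanthocyanidin synthesis known from Arabidopsis were also among the members. They are named here after their values had been seen. The list for transparent testa and proanthocyanidin, which takes in anthocyanidin reductase, was also added afterwards. It had 5 of 11 transcripts higher in gall and 0 higher in seed flowers as members. Without regard to the threshold, 1 of the 11 was higher in seed flowers at both stages. Locus_22187, described as TT2-like, a MYB activator, had an RPKM of 14.9 and 23.5 in receptive and pollinated gall flowers, against 2.13 and 4.69 in receptive and pollinated seed flowers. The bHLH protein TT8 (Locus_953) stood at 64.8 and 48.4 RPKM in gall flowers, against 11.3 and 15.8 in seed flowers, at the receptive and pollinated stage. For the TT12-like transporter of the vacuole membrane (Locus_9648) the ratios were 5.32 (4.54 to 6.27) and 2.62 (2.39 to 2.89). The MYB4-like repressor Locus_2693, a type that lowers phenylpropanoid genes in Arabidopsis, was higher in gall flowers as well, with 36.7 and 43.8 RPKM in receptive and pollinated gall flowers, against 5.39 and 10.7 in receptive and pollinated seed flowers. The list of 61 transcripts whose descriptions contain MYB or bHLH held 3 members higher in gall and 1 higher in seed flowers. It does not take in the TT2-like and TT8 transcripts, whose descriptions lack these words.

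Ranked by the smaller of both ratios, 2 of the 3 extensin-like transcripts came first among the described members higher in gall flowers. Extensins are hydroxyproline-rich proteins that stiffen the wall. Locus_10755, described as extensin-like, had an RPKM of 262 in receptive and 75.1 in pollinated gall flowers, against 2.94 and 2.59 in receptive and pollinated seed flowers. Its ratios were 89.1 (61.6 to 134) and 29.1 (21.8 to 39.6), and the level in seed flowers rested on 28 and 47 reads. Locus_1527, with the same description and a length of 252 bp, had nearly the same profile, with 486 and 140 RPKM in receptive and pollinated gall flowers, against 7.88 and 7.17 in receptive and pollinated seed flowers. The third extensin-like transcript compared, Locus_30985 (153 bp), was no member and more abundant, with 917 and 673 RPKM in receptive and pollinated gall flowers, against 558 and 937 in receptive and pollinated seed flowers. A pectin methylesterase, an enzyme that removes methyl groups from pectin, was at 71.3 and 60.1 RPKM in receptive and pollinated gall flowers (Locus_3570), against 4.10 and 6.02 in receptive and pollinated seed flowers. Of 47 pectin-modifying transcripts 6 were higher in gall flowers and 1 was higher in seed flowers. The list of expansins, xyloglucan and cellulose, which also takes in the extensins, held 6 and 4 of 50. The list medians at the receptive and pollinated stage were 0.64 and 0.20 for pectin and 0.60 and 0.27 for the other list. Enzymes of lignin and laccases had 4 of 29 higher in gall flowers, among which were cinnamoyl reductase (Locus_92) with ratios of 6.02 (5.45 to 6.68) and 2.28 (2.18 to 2.38) and laccase 1a (Locus_9536) with 9.48 (8.43 to 10.7) and 3.02 (2.85 to 3.21).

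Pathogenesis-related proteins and inhibitors had 10 of 53 transcripts higher in gall and 2 higher in seed flowers, although the median log2 ratio of the list was -0.16 at the receptive and 0.21 at the pollinated stage. Chitinases break down the chitin of fungal walls and insects. For the class IV chitinase Locus_1182 the RPKM was 18.5 in receptive and 139 in pollinated gall flowers, against 1.46 and 15.4 in receptive and pollinated seed flowers. Pollinated seed flowers came close to receptive gall flowers without overlap, and the ratios were 12.6 (8.15 to 20.8) and 9.02 (8.16 to 9.99). Locus_774, a thaumatin-like protein of the PR-5 family, behaved alike, with 65.2 and 301 RPKM in receptive and pollinated gall flowers, against 6.55 and 25.2 in receptive and pollinated seed flowers. In both flower types these levels were higher after foundress introduction. By contrast, the class I chitinase Locus_20250 was lower in pollinated than in receptive gall flowers (418 and 588 RPKM) and higher in pollinated than in receptive seed flowers (137 and 40.7 RPKM). The thaumatin-like Locus_11251 and the pathogenesis-related Locus_44513 were higher in seed flowers, with receptive ratios of 0.473 and 0.498 and pollinated ratios of 0.447 and 0.343.

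Peroxidases and oxidases, which act on phenolics and on the wall, had 17 of 55 transcripts higher in gall and 0 higher in seed flowers (list medians 0.68 and 0.59). The cationic peroxidase Locus_20874 was at 1269 and 1715 RPKM in receptive and pollinated gall flowers, against 344 and 480 in receptive and pollinated seed flowers, with nearly equal ratios of 3.68 (3.47 to 3.91) and 3.57 (3.44 to 3.71). Polyphenol oxidase, which turns phenols into browning quinones, had 4 of 6 transcripts higher in gall flowers. Of these, Locus_24409 had 827 and 836 RPKM in receptive and pollinated gall flowers, against 220 and 360 in receptive and pollinated seed flowers. Cysteine proteinases were 2 of the 10 proteases higher in gall flowers among 78 compared, and Locus_13840 stood at 335 and 293 RPKM in gall flowers against 16.6 and 56.9 in seed flowers at the receptive and pollinated stage. Receptors of the NB-LRR kind sense pathogens. The disease resistance list that takes them in had medians of 0.89 at the receptive and 0.01 at the pollinated stage. Of its 80 transcripts 5 (6.25%) were higher in gall and 1 (1.25%) in seed flowers. These shares lie near the 5.0% and 2.98% over all transcripts compared, and nothing is read from them. The list also took in multidrug resistance proteins, which are transporters, such as Locus_27927, a member higher in gall flowers.

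Sugar supplies carbon to growing flowers. Sucrose and sugar metabolism had 7 of 59 higher in gall and 0 in seed flowers, with list medians of 1.09 at the receptive and 0.45 at the pollinated stage. The beta-galactosidase Locus_1085 had an RPKM of 62.2 in receptive and 319 in pollinated gall flowers, against 1.47 and 147 in receptive and pollinated seed flowers, so that pollinated seed flowers lay above receptive gall flowers and the ratio was 42.2 (31.9 to 57.1) before and 2.16 (2.12 to 2.21) after foundress introduction. The monosaccharide carrier Locus_2823, described as sugar transport protein 5-like, had 363 and 221 RPKM in receptive and pollinated gall flowers, against 16.6 and 81.1 in receptive and pollinated seed flowers. Of 18 transcripts for sugar transport 4 were higher in gall flowers, and 1, the ERD6-like carrier Locus_752, was higher in seed flowers with ratios of 0.483 (0.468 to 0.50) and 0.442 (0.433 to 0.452). Galactinol synthase, which starts the raffinose sugars, was noticed after its values had been seen. Its 2 transcripts had the larger ratio at the pollinated stage, 8.06 (6.91 to 9.46) for Locus_2768 and 5.96 (4.97 to 7.19) for Locus_8663, against 2.18 and 4.52 at the receptive stage. In the starch list 4 of 21 were higher in gall flowers, but Locus_4547 among them is an inhibitor of amylase and subtilisin.

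**Figure D5:**
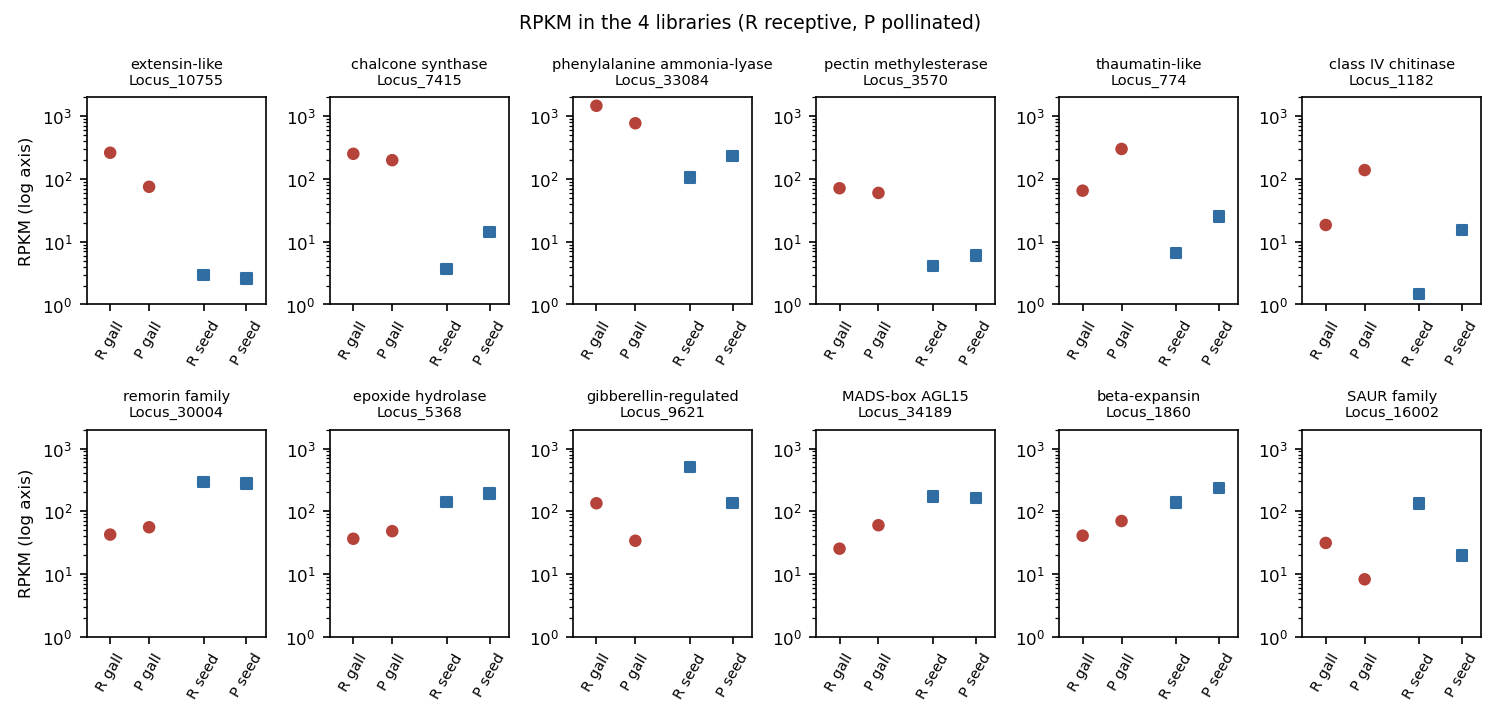
Points give the RPKM of 12 named members in each library on a log axis, with gall flowers as red circles on the left of each panel and seed flowers as blue squares on the right. In the upper row both gall values lie above both seed values, most narrowly for class IV chitinase, with 18.5 RPKM in receptive gall beside 15.4 RPKM in pollinated seed flowers. In the lower row all pairs of the same stage are higher in seed flowers, and the SAUR and gibberellin-regulated transcripts are lower at the pollinated stage in both flower types.

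A naming description was given for 74.7% of the members higher in gall flowers and 135 of the 306 (44.1%) higher in seed flowers, against 67.9% of all transcripts compared. Of the members higher in seed flowers 121 (39.5%) had no description at all. Among the described ones, 24 carried descriptions that are often given to ribosomal RNA fragments or that name a microbe or an animal, against 0 of the members higher in gall flowers, and without them 282 remain. Transcripts with the ribosomal RNA kind of description took 0.432% and 0.262% of the reads in receptive and pollinated gall flowers, against 1.02% and 0.553% in receptive and pollinated seed flowers, and their part in the ratios of other transcripts was not tested. The P450 list had 9 of 56 transcripts (16.1%) higher in gall and 6 (10.7%) higher in seed flowers. Of these 6, 5 are transcripts of 120 to 302 bp described as "liketbp". Without this description, 9 of 40 were higher in gall and 1 was higher in seed flowers. Ranked by the ratio nearer to 1 of both stages, Locus_51648 (132 bp, no description) came first, with 81.0 and 30.3 RPKM in receptive and pollinated gall flowers, against 876 and 348 in receptive and pollinated seed flowers.

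Among described members of seed flowers, remorin is a plant protein of the plasma membrane. Locus_30004 had an RPKM of 42.5 and 55.6 in receptive and pollinated gall flowers, against 290 and 277 in receptive and pollinated seed flowers. Its ratios were 0.147 (0.139 to 0.154) and 0.201 (0.193 to 0.209), and the flower types did not overlap. The epoxide hydrolase Locus_5368, of enzymes that open epoxide rings, was at 36.4 and 48.1 RPKM in receptive and pollinated gall flowers, against 140 and 193 in receptive and pollinated seed flowers. A fatty acid desaturase, which adds double bonds to acyl chains (Locus_545), was at 6.47 and 9.96 RPKM in gall flowers against 33.1 and 39.6 in seed flowers of the receptive and pollinated stage. For both, each gall library lay below each seed library.

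Transcripts described as SAUR or gibberellin-regulated proteins were among the members higher in seed flowers. SAUR proteins are encoded by early auxin-responsive genes. Of 15 such transcripts 0 were higher in gall and 8 (53.3%) in seed flowers, beside 5.0% and 2.98% over all transcripts compared. The list medians were -1.24 and -1.13. This list was added after the members had been seen. The 8 are 375 to 632 bp long. Over all transcripts of 300 to 500 and of 500 to 1000 bp, receptive medians were -0.91 and -0.73, and pollinated medians -0.14 and -0.16. The part of length was not tested. The auxin list had 3 of 53 transcripts higher in gall and 4 higher in seed flowers, and it shares 3 transcripts with the SAUR list, of which 2 were members higher in seed flowers. Locus_16002 had an RPKM of 31.2 and 8.23 in receptive and pollinated gall flowers, against 133 and 19.8 in receptive and pollinated seed flowers. All 8 were lower at the pollinated than at the receptive stage in both flower types (median log2 -2.02 in gall and -2.17 in seed flowers), so the flower types overlapped across stages for 6 of them. The gibberellin-regulated Locus_9621, a small cysteine-rich peptide, was also lower at the pollinated stage in both flower types, with 134 and 33.9 RPKM in receptive and pollinated gall flowers, against 510 and 135 in receptive and pollinated seed flowers. Its ratios of 0.263 (0.253 to 0.273) and 0.251 (0.237 to 0.267) were nearly equal.

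Expansins loosen the wall during growth, and of 12 such transcripts 1 was a member higher in gall and 2 were members higher in seed flowers. The alpha-expansin 5 Locus_1268, named after its values had been seen, had 31.1 and 39.2 RPKM in receptive and pollinated gall flowers, against 7.11 and 6.88 in receptive and pollinated seed flowers. The beta-expansin Locus_1860 was at 40.8 and 70.0 RPKM in receptive and pollinated gall flowers, against 138 and 235 in receptive and pollinated seed flowers, with the same ratio of 0.297 (0.280 to 0.314) and 0.298 (0.287 to 0.308). Locus_31145, a fragment of 110 bp described as expansin, had ratios of 0.252 (0.200 to 0.318) and 0.285 (0.255 to 0.318). Unlike the SAUR transcripts, the pair higher in seed flowers was higher at the pollinated stage in each flower type.

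Some transcription factors were among the members. The AGL15-like MADS-box Locus_34189, of a type that accumulates in embryos of Arabidopsis, was the only member of 19 MADS-box and floral identity transcripts. It had 25.3 and 59.9 RPKM in receptive and pollinated gall flowers, against 173 and 163 in receptive and pollinated seed flowers. The median of the list was 0.76 at the receptive and -0.26 at the pollinated stage. The SUPERMAN-like Locus_16888, a zinc finger protein that sets the border of stamens and carpels in Arabidopsis, was noticed after its values had been seen and had ratios of 0.331 (0.300 to 0.365) and 0.315 (0.294 to 0.338). The homeobox, YABBY and KNOX list had 1 of 30 transcripts higher in gall and 1 higher in seed flowers (medians -0.01 and -0.14). The member higher in gall flowers was Locus_812, GLABRA2-like and thus of a family of the epidermis. Its ratios were 24.6 (18.7 to 33.2) and 2.67 (2.46 to 2.90). Among WRKY and NAC factors 4 of 30 were higher in gall and 1 in seed flowers. WRKY40 (Locus_6730) had 33.0 and 21.9 RPKM in receptive and pollinated gall flowers, against 10.8 and 3.72 in receptive and pollinated seed flowers.

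Other groups are set beside the shares over all transcripts compared, 5.0% higher in gall and 2.98% higher in seed flowers. Ribosomal proteins had 4 of 195 transcripts (2.05%) higher in gall and 1 (0.513%) higher in seed flowers (list medians -0.85 and -0.33). Locus_30215 and Locus_47872 among the 4 are ubiquitin fusions. Cell division and histones had 0 of 71 higher in gall flowers, with 1 (1.41%) higher in seed flowers. Heat shock proteins had 1 and 2 of 77 (1.30% and 2.60%), and calcium signalling 3 and 1 of 88 (3.41% and 1.14%). Photosynthesis had 2 of 29 (6.90%) higher in gall flowers, near the share over all transcripts, with medians of 0.71 and -0.20. The summed RPKM of these 29 was 1430 and 867 in receptive and pollinated gall flowers, against 1033 and 1103 in receptive and pollinated seed flowers. Lists matched by words for pollen (0 of 12 members), vascular tissue (1 of 12) and fungi (0 of 6) are too small to show a lack of members. Their part in the ratios was not tested. The summed RPKM of the 12 pollen-described transcripts lay between 1021 and 1084 in all libraries. Receptive flowers, taken before any wasp was let in, are among these libraries, so this sum cannot show how much pollen a library held.

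Stage as a block was used to test the difference of flower type across all 10267 transcripts (edgeR quasi-likelihood F-test, Benjamini-Hochberg adjustment, 1 residual degree of freedom). A transcript was called at an adjusted p under 0.05. The fit called 259 transcripts higher in gall (2.52%) and 38 higher in seed flowers (0.370%), and all 297 were members. The test reads the same ratios, so the calls do not support the choice of members. The smallest adjusted p was that of the extensin-like Locus_10755 (0.00256 by edgeR, log2 difference 5.78), and chalcone synthase and isomerase had 27 of the calls. In seed flowers the remorin Locus_30004 (edgeR adjusted p = 0.0163), the epoxide hydrolase Locus_5368 (0.0332) and AGL15-like Locus_34189 (0.0399) were called. Of the 15 SAUR transcripts 0 were called. With 0.370% of all transcripts called higher in seed flowers, nothing is read from this. Beside 1 residual degree of freedom, the fit drew a median of 11.3 from all transcripts together, so its spread was mostly pooled. A small p therefore does not show that the ratios of a transcript were alike at the stages. The chalcone synthase Locus_42519 was called with ratios of 56.3 and 3.93, whereas the beta-expansin Locus_1860, with 0.297 and 0.298, was not called. Nor do the p-values measure the variation between samples of the same kind. The count depended on the fit, since limma on log2(RPKM + 1) called 0 in either direction (851 and 694 higher in gall and in seed flowers at an unadjusted p under 0.05) and DESeq2 called 646 higher in gall and 132 higher in seed flowers.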

How the data were processed

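RNA from 4 pooled flower samples was sequenced as paired-end reads. Per the labels, reads were checked with FastQC 0.10.0 and trimmed with Trimmomatic 0.22. The authors built 1 joint assembly with Oases, in which each locus is represented by its longest transcript, and mapped the reads with CLC Genomics Workbench. Used here were the deposited read counts per transcript, total and unique. The RPKM deposited by the authors derives from the total reads, and was rebuilt with a largest difference of 5.0e-04. Whether reads or pairs were counted is not given in the sources used here. A further 12 columns repeat others and were not used. Gene names and GO terms are those the authors deposited from protein matches.

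Ratios of RPKM were formed at each stage for 10267 transcripts. Of 10434 with an RPKM above 20, 167 had too few receptive reads. No transcript compared had an RPKM of 0 in any library, so no RPKM ratio rests on a floor. In alternatives such as uniquely mapped reads, 0 reads were set to 3 reads. Intervals are Clopper-Pearson. The additive model of stage and flower type used edgeR 4.0.16 (R 4.3.3, TMM), with limma 3.58.1 and DESeq2 1.42.0 as alternatives. The methods were tested on simulated data.

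Named were the 8 described members of each direction, with at least 10 reads in every library, that had the largest smaller log2 ratio, the 3 largest of any description, up to 2 per gene list and direction by mean RPKM, those nearest the threshold and the 3 with the smallest p of each direction. Not all of these are given in the text. The lists were matched by words in the descriptions. The members and lists were chosen with earlier results of these data known. The shikimate, transparent testa, SAUR, gibberellin-regulated, polyphenol oxidase, P450 without "liketbp", ribosomal RNA and microbe or animal lists were added after values had been seen. So were the single enzymes, and Locus_22187, Locus_953, Locus_9648, Locus_1263, Locus_2768, Locus_8663, Locus_16888, Locus_1268 and Locus_30985. Alternatives were other scalings, uniquely mapped reads, other thresholds and minimums, thinning to the smallest library, removal of the length trend (running median of 501 transcripts), Kal's Z-test and, added after seeing the data, lists without certain descriptions. Transcript sequences were not analysed here.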

Additional observations from a re-analysis of the deposited data

Results flagged for a closer look

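Transcripts that passed the threshold in opposite directions at the stages were set apart, because the gall to seed difference then turned between groups. A ratio of at least 2 at the receptive and of at most 0.5 at the pollinated stage was found for 27 transcripts, and the opposite for 32. The difference between the stages was not tested. Locus_29679 (382 bp, no description) had 443 and 130 RPKM in receptive and pollinated gall flowers, against 104 and 1074 in receptive and pollinated seed flowers. Among the described ones, the PR10-like Locus_26033 had ratios of 3.60 at the receptive and 0.355 at the pollinated stage.

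Gene lists of at least 10 transcripts whose median log2 ratio had opposite signs at the stages and differed by at least 0.5 were also set apart, without a test of the difference. The receptive minus the pollinated median was 1.01 for MADS-box and floral identity transcripts (0.76 and -0.26), 0.903 for photosynthesis (0.71 and -0.20), 0.571 for terpenoid enzymes (0.50 and -0.07) and -0.589 for glutathione S-transferases (-0.06 and 0.53).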

How the results depend on the processing

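The numbers of members higher in gall and in seed flowers, 513 and 306, were 1024 and 1095 at a threshold of 1.5 and 189 and 75 at a threshold of 3, 825 and 1049 with no RPKM minimum, 752 and 698 with an RPKM above 5, 1807 and 2263 at the receptive stage alone and 824 and 565 at the pollinated stage alone. Members higher in seed flowers numbered 173 with the length trend removed, 186 where the counting interval had to pass the threshold and 135 with naming descriptions only. Rescaling, uniquely mapped reads, at least 30 reads in every library, thinning and 1 added to each RPKM kept both numbers within 1.5 times.

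The edgeR calls higher in gall and in seed flowers, 259 and 38, were 71 and 17 without a scaling factor, 646 and 132 by DESeq2, 4010 and 212 with no filter (53609 transcripts tested), 6 and 0 with at least 30 reads in every library, and 766 and 543 by Kal's Z-test at both stages. They were 0 and 0 by limma, without the stage block and with the length trend removed. At an unadjusted p under 0.05 these fits had 851 and 694, 1006 and 481, and 1275 and 426 transcripts, the fit with at least 30 reads 1138 and 397, and the edgeR fit as reported 1250 and 427. The cause was not tested. No transcript named by the stated rules changed direction under the alternatives in which it was present. Those named after their values had been seen were not run. For members, at least 2-fold apart, TMM shifts of 0.15 and 0.12 in log2 could not have reversed a ratio. Outside the named transcripts, unique-read ratios of chalcone synthase members went down to 0.377 at the receptive and 0.250 at the pollinated stage. Leaving out a library leaves a single stage, given above. The labels carry no replicate numbers, and the libraries were paired by stage alone, as the block of the edgeR fit. Depth limits the ratios of transcripts with few reads in receptive seed flowers, where 3 reads on 1 kb are an RPKM of 0.259.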
